A study of Homo sapiens with 12 samples.

Results

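REST, the repressor of neuronal genes, and the proteins through which it silences chromatin were followed at the transcript level in HEK293, a human line of embryonic kidney origin, in which the Mediator subunit MED12 was raised, raised in a shortened form, or lowered. The genes were chosen by name: REST, RCOR1, EHMT1, EHMT2, KDM1A, KDM5C, HDAC1, HDAC2 and SIN3A. Of these 9 genes 8 had a row of their own among the 22011 rows of the deposited table, 1 row each. KDM5C shares its row with another gene symbol and is not reported. Cells grew for 24 hours, were transfected by lipofection and were harvested 48 hours later, and living cells with detectable GFP were collected in a 20 minute flow sort. There were 4 groups of 3 biological replicates on 12 arrays. The control received nuclear GFP alone in pcDNA5/TO. The second group received full-length MED12 and the third MED12 lacking its C-terminal PQL and Opa domains, each with an engineered Kozak sequence and an N-terminal nuclear GFP tag in the same vector. The last group received a short hairpin RNA (shRNA 5) against MED12, driven by an H1 promoter in peGFP-C1, so that hairpin and vector cannot be told apart in the comparison with the control. No group with a control hairpin is among the samples used here. Expression was transient, and the sort took every living cell with GFP, whatever its amount of construct.

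REST is a zinc finger protein that binds a long DNA element, RE1, in and near neuronal genes and keeps them silent outside neurons. Its N-terminal repression domain recruits SIN3A, a scaffold that carries the histone deacetylases HDAC1 and HDAC2. Its C-terminal domain recruits RCOR1 (CoREST), which holds the same deacetylases together with KDM1A (LSD1), a demethylase of histone H3K4. EHMT2 (G9a) and its partner EHMT1 (GLP) place the repressive mono- and dimethyl marks on H3K9, and MED12 has been described as a link between REST and G9a. The comparisons ask whether the transcripts of this machinery differ when MED12 is raised, truncated or lowered. They do not measure the proteins, their assembly or histone marks.

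REST acts at its targets through RE1, and 2 examples from neuronal genes are shown because they are the element that gives REST its name. In the RefSeq promoter windows of GRCh38.p14 (250 bases before to 50 after a gene's start), the RE1 pattern in capitals below, with its bases 9 and 10 free, was searched on both strands. It was found in 14 of 35116 windows (0.0399%), in 2 of the 32 neuronal REST target genes of a list that had a window, and in 0 of the 10 windows of the 8 genes studied here. No match says only that these letters are not in those windows. The matches among those target genes lay in the promoters of SYN1 (chrX:47620067-47620096, minus strand), a synaptic vesicle protein gene, and GRIA2 (chr4:157220385-157220414, minus strand), a glutamate receptor gene. Capitals mark the match in each.
SYN1: gccagctTCAGCACCGCGGACAGtgccttc
GRIA2: cggccttTCAGCACCGAGGACAGcgcctcg
Both genes were chosen for their sequence, after the values were known. GRIA2 had log2 values of 2.30, 1.68 and 1.49 with GFP and 2.31, 1.36 and 1.67 with the shRNA, in replicates 1 to 3, so the groups overlapped. GRIA2 stood low in every array, from the 4.57th percentile of all rows (shRNA replicate 2) to the 11.5th (PQL/Opa-deleted replicate 1). Whether its transcript was detected was not tested, so the overlap does not show that its expression is unchanged. SYN1 had 3.97, 3.77 and 3.59 with GFP and 4.30, 3.66 and 3.77 with the shRNA, which overlapped as well.

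The promoters of the studied genes have the GC-rich composition usual for genes used in most tissues. All 10 of their windows lay above the median GC content of all windows (58.7%), with a range from 59.7% to 79.3%. The GC box, GGGCGG, searched on both strands, was present in 9 of the 10 windows and in 45.0% of all windows. HDAC2 was the gene without one. CCAAT was present in 4 of the 10, and in 34.6% of all. The sequences that follow are the 250 bases upstream of the start for REST (the first of its 2 windows, chr4:56907650-56907899, plus strand) and for KDM1A (chr1:23019218-23019467, plus strand) and HDAC2 (chr6:113971149-113971398, minus strand), the genes with the largest differences. Capitals mark GC boxes on either strand; REST has 3, KDM1A 1 and HDAC2 0. Expression values do not show which part of a promoter is used.
REST: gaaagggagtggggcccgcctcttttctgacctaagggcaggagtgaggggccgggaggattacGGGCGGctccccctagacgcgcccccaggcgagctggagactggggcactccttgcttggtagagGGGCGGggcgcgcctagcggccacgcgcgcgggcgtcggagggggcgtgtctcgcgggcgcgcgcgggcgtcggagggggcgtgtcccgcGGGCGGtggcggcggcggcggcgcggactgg
KDM1A: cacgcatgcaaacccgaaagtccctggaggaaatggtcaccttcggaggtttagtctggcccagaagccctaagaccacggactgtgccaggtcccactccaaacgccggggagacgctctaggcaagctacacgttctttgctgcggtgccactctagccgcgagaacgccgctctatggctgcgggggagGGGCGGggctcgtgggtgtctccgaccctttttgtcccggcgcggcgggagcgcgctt
HDAC2: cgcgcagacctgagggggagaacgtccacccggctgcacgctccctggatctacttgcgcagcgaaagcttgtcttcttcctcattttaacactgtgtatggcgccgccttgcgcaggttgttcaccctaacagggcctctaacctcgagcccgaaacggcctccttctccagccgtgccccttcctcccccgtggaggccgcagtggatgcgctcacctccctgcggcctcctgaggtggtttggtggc

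The construct itself was read out clearly. MED12 had log2 values of 4.03, 4.56 and 4.66 with GFP, 10.63 to 10.75 with full-length MED12, 8.62 to 9.25 with the PQL/Opa-deleted form and 3.63 to 3.74 with the shRNA. The log2 difference from GFP was 6.27 with full-length MED12 (limma, adjusted p = 3.67e-08) and 4.51 with the deleted form (limma, adjusted p = 1.54e-06). With the shRNA it was -0.75, short of the threshold (limma, adjusted p = 0.730), with no overlap between the shRNA values and the higher GFP values. Full-length exceeded deleted MED12 by 1.76 (limma, adjusted p = 0.0421), a call that was lost with the 6 arrays alone, with a trend, without the 3 arrays of narrowest spread and in 9 of the 12 fits without 1 array (limma, adjusted p up to 0.365). Which part of MED12 its probes cover is not given, so the value of the deleted form is not a measure of amount alone. The arrays differed in how widely their values spread. The standard deviation (SD) over all rows was 1.34 in shRNA replicate 1, 1.40 in GFP replicate 1, 1.45 in PQL/Opa-deleted replicate 1 and 1.47 in shRNA replicate 3, and 1.51 to 1.60 in the other 8. The 10 measured genes of the HEK293 list had row means from the 47.2th percentile (EYA1) to the 96.8th (KRT8), with KRT18 at the 49.5th, VIM at the 93.5th and the neurofilament gene NEFM at the 90.0th. The 5 measured blood markers ranged from the 7.79th (LYZ) to the 51.7th (CD14). The highest of the liver, fibroblast and neuron lists were APOA1 at the 73.3th, COL1A1 at the 65.5th and GAD1 at the 62.3th. These and CD14 stood above KRT18 and EYA1, so the lists are not separated gene by gene. The mean level per array was 4.34 to 4.77 over the 10 measured HEK293 genes, 2.74 to 3.42 over 6 fibroblast markers, 2.02 to 2.77 over 5 blood markers, 2.67 to 3.76 over 4 liver markers and 2.87 to 3.27 over 7 neuron markers. In these marker lists 0 genes passed (limma; NEFM was the 1 at an unadjusted p under 0.05, lower with the shRNA).

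None of the 8 genes passed the test in any comparison. With limma, 0 of 8 passed an adjusted p of 0.05 with full-length MED12 (0 at an unadjusted p under 0.05), 0 with the PQL/Opa-deleted form (0 unadjusted), 0 with the shRNA (1 unadjusted, HDAC2) and 0 between the constructs (0 unadjusted). Over all rows, 0.0136%, 0.00454%, 0.0681% and 0.00454% passed in the same order, so a share of 0 is near the background. An unadjusted p under 0.05 was held by 2.8%, 3.46%, 5.04% and 1.9% of all rows. A moderated F test over the 4 groups also called 0 of the 8 (1 unadjusted, HDAC2), against 0.0863% of all rows (4.62% unadjusted). The difference was below 0 in 5, 3, 7 and 5 of the 8 genes, against 51.4%, 51.6%, 45.6% and 50.3% of all rows. The groups did not overlap in 0, 1, 1 and 0 of the 8, against 7.72%, 7.92%, 8.56% and 6.91% of all rows. The median log2 difference of the 8 genes was -0.039 with full-length MED12, 0.016 with the deleted form and -0.19 with the shRNA, where the medians of all rows were -0.0066, -0.0079 and 0.024. Over the 12 fits without 1 array the median of the 8 ranged from -0.13 (without GFP replicate 1) to 0.069 (without full-length replicate 1), from -0.10 (without GFP replicate 1) to 0.12 (without PQL/Opa-deleted replicate 1) and from -0.40 (without shRNA replicate 2) to -0.039 (without shRNA replicate 1), so the sign of the first and second turned. The intervals below are limma's 95% intervals for single genes, not adjusted for the number of rows.

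**Figure D1:**
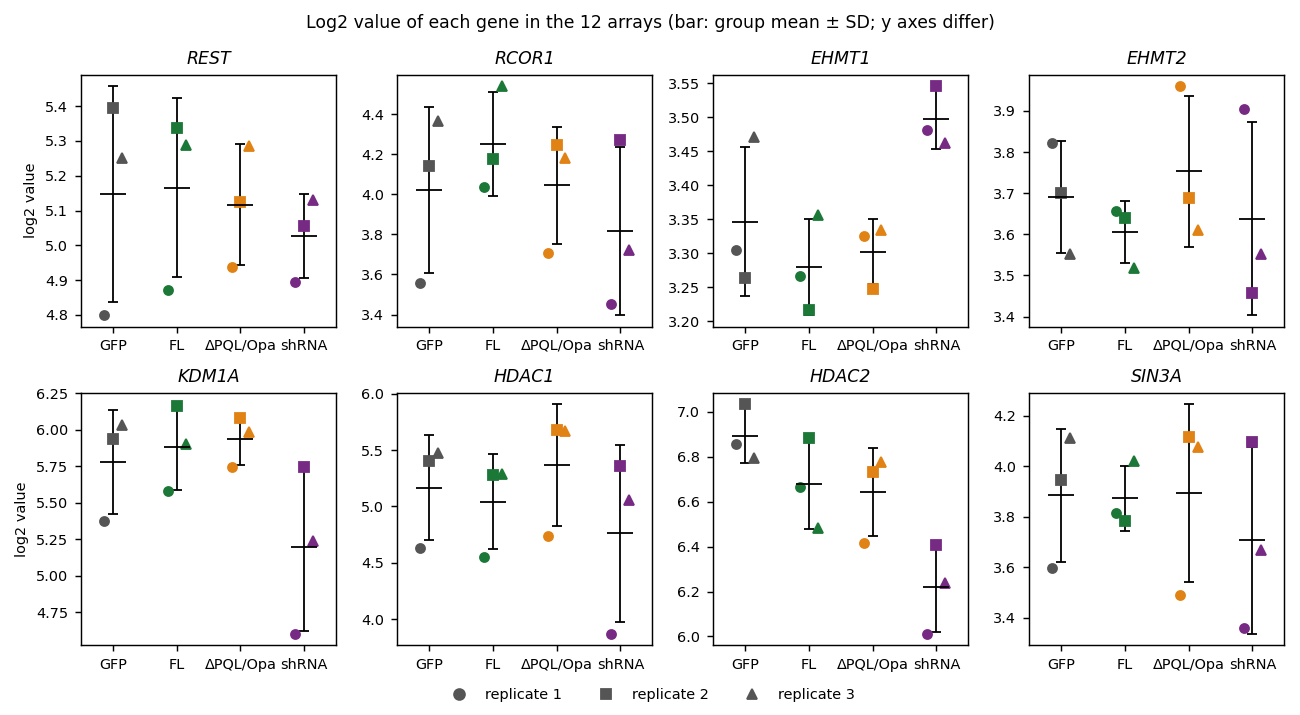
Each panel plots the log2 value of 1 gene in the 12 arrays, grouped as GFP, full-length MED12 (FL), PQL/Opa-deleted MED12 (ΔPQL/Opa) and shRNA, with markers for the replicate number, a bar for the group mean and whiskers for ± 1 SD. HDAC2 in the shRNA arrays lies below every other array, at 6.41 or less, while the REST groups overlap throughout.

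REST itself had nearly the same mean in each group. Its log2 values were 4.80, 5.39 and 5.25 with GFP, 4.87, 5.34 and 5.29 with full-length MED12, 4.94, 5.12 and 5.29 with the deleted form and 4.89, 5.06 and 5.13 with the shRNA, for replicates 1 to 3. Replicate 1 was the lowest array in each group, and all groups overlapped. The difference from GFP was 0.018 with full-length MED12 (interval -0.41 to 0.45), -0.031 with the deleted form (interval -0.46 to 0.40) and -0.12 with the shRNA (interval -0.55 to 0.31). A fall in the shRNA group of more than 0.55 on the log2 scale lies outside that interval, and smaller changes of either sign are not resolved by 3 arrays a group. The adjusted p was 1.00 in all 3 comparisons (limma).

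RCOR1, the CoREST scaffold, differed more between the arrays of a group than between group means. RCOR1 had 3.56, 4.14 and 4.36 with GFP, 4.03, 4.18 and 4.54 with full-length MED12, 3.71, 4.24 and 4.18 with the deleted form and 3.45, 4.27 and 3.72 with the shRNA. Its highest array was full-length replicate 3 and its lowest shRNA replicate 1, with all groups overlapping. The difference from GFP was 0.23 with full-length MED12 (interval -0.36 to 0.82) and -0.21 with the shRNA (interval -0.79 to 0.38). Without GFP replicate 1, an array of narrow spread, the full-length difference was -0.0013 and the shRNA difference -0.44, and without shRNA replicate 1 the latter was -0.024.

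KDM1A stood lowest in the hairpin arrays. Its log2 values were 5.38, 5.93 and 6.04 with GFP, 5.58, 6.16 and 5.91 with full-length MED12, 5.74, 6.08 and 5.99 with the deleted form and 4.60, 5.75 and 5.24 with the shRNA. Replicates 1 and 3 of the shRNA lay below all 9 arrays of the other groups, and replicate 2 lay within the GFP range. The mean was 5.20 ± 0.57 (SD, n = 3) against 5.78 ± 0.36 with GFP, a difference of -0.59 ± 0.28 (SE; interval -1.21 to 0.035) that did not pass (limma, unadjusted p = 0.0623, adjusted p = 0.996). Both low arrays are among the 4 of narrowest spread. The difference was -0.29 without shRNA replicate 1 and -0.86 without shRNA replicate 2, and it kept its sign in all 21 refits. It was -0.68 to -0.49 in the refits other than those without 1 array. These include quantile normalization, scaling and the fit without the 3 arrays of narrowest spread. How much of the difference goes with the array spread was not tested.

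HDAC2, a class I histone deacetylase of both the CoREST and the SIN3 complex, showed the largest difference. Its log2 values were 6.86, 7.03 and 6.79 with GFP, 6.67, 6.88 and 6.48 with full-length MED12, 6.42, 6.73 and 6.78 with the deleted form and 6.01, 6.41 and 6.24 with the shRNA. All 3 shRNA arrays lay below the 9 others, by a margin of 6.41 against 6.42 at the closest, a position held by 0.881% of all rows. The group mean was 6.22 ± 0.20 with the shRNA and 6.89 ± 0.12 with GFP (SD, n = 3), a GFP level 1.60-fold that of the shRNA group. The log2 difference was -0.68 ± 0.17 (SE; interval -1.05 to -0.30; limma, unadjusted p = 0.00223) and missed the threshold once adjusted (limma, adjusted p = 0.673). In bulk samples such as these, fewer cells with a transcript and less of it per cell cannot be told apart. Rows lower in the shRNA arrays at an unadjusted p under 0.05 made up 2.58% of all rows, and 1 of the 8 genes was among them. A single gene of 8 is no result about the set against that background.

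HDAC2 kept its sign in all 21 refits. The difference was -0.52 after quantile normalization, which gives every array the same spread, -0.59 without the 3 arrays of narrowest spread, and from -0.77 to -0.57 over the 12 fits without 1 array. By rank within the array it held the 94.1th to 94.6th percentile in the shRNA arrays and the 95.1th to 96.2th with GFP. It held the 94.4th to 95.5th with full-length MED12 and the 94.9th to 95.3th with the deleted form. By rank, full-length replicate 3 (94.4th) stood under shRNA replicate 1 (94.6th), so the shRNA arrays were not below all 9 others on this measure. With array weights, which raised shRNA replicate 3 to 8.77, both HDAC2 (limma, adjusted p = 0.00195) and KDM1A (limma, adjusted p = 0.00775) passed with the shRNA, in a fit that called 5702 of all rows. In the overexpression groups HDAC2 had -0.22 with full-length MED12 (interval -0.59 to 0.16) and -0.25 with the deleted form (interval -0.63 to 0.13). The deleted form did not overlap GFP, by 6.78 against 6.79. These comparisons share the GFP arrays, so their common sign is not a separate observation for each.

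HDAC1, the paralogue of HDAC2, spread most of the 8 genes. It had 4.63, 5.40 and 5.47 with GFP, 4.56, 5.28 and 5.29 with full-length MED12, 4.74, 5.68 and 5.67 with the deleted form and 3.87, 5.36 and 5.06 with the shRNA. In every group replicate 1 was the lowest array, and the shRNA groups overlapped with GFP. The shRNA difference was -0.41 (interval -1.30 to 0.49), and without shRNA replicate 1 it was 0.041. SIN3A, the scaffold of the other deacetylase complex, had 3.60, 3.94 and 4.11 with GFP and 3.36, 4.09 and 3.67 with the shRNA, with overlapping ranges and a difference of -0.18 (interval -0.69 to 0.33), which was -0.37 without shRNA replicate 2 and -0.0032 without shRNA replicate 1. Its full-length values were 3.81, 3.78 and 4.02 and those of the deleted form 3.49, 4.11 and 4.08, with differences from GFP of -0.011 and 0.0090.

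Over the 12 arrays the H3K9 methyltransferases had the smallest SD of the set, 0.11 for EHMT1 and 0.15 for EHMT2. For EHMT2 this did not hold in every group: with the shRNA its SD was 0.23 and that of REST 0.12. EHMT2 (G9a) had 3.82, 3.70 and 3.55 with GFP, 3.66, 3.64 and 3.52 with full-length MED12, 3.96, 3.69 and 3.61 with the deleted form and 3.90, 3.46 and 3.55 with the shRNA. Its differences from GFP were -0.086 (interval -0.45 to 0.28), 0.062 (interval -0.30 to 0.42) and -0.053 (interval -0.42 to 0.31). EHMT2 was highest in replicate 1 of every group, where REST, RCOR1, KDM1A and HDAC1 were lowest. EHMT1 (GLP) had 3.30, 3.26 and 3.47 with GFP, 3.27, 3.22 and 3.36 with full-length MED12, 3.33, 3.25 and 3.33 with the deleted form and 3.48, 3.55 and 3.46 with the shRNA. The shRNA arrays stood above both overexpression groups and touched the top GFP array, for a difference from GFP of 0.15 (interval -0.13 to 0.43; limma, adjusted p = 1.00). EHMT1 and EHMT2 stood between the 41.6th and 68.1th percentile of their arrays. Whether this pair lies above the arrays' background was not tested.

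**Figure D2:**
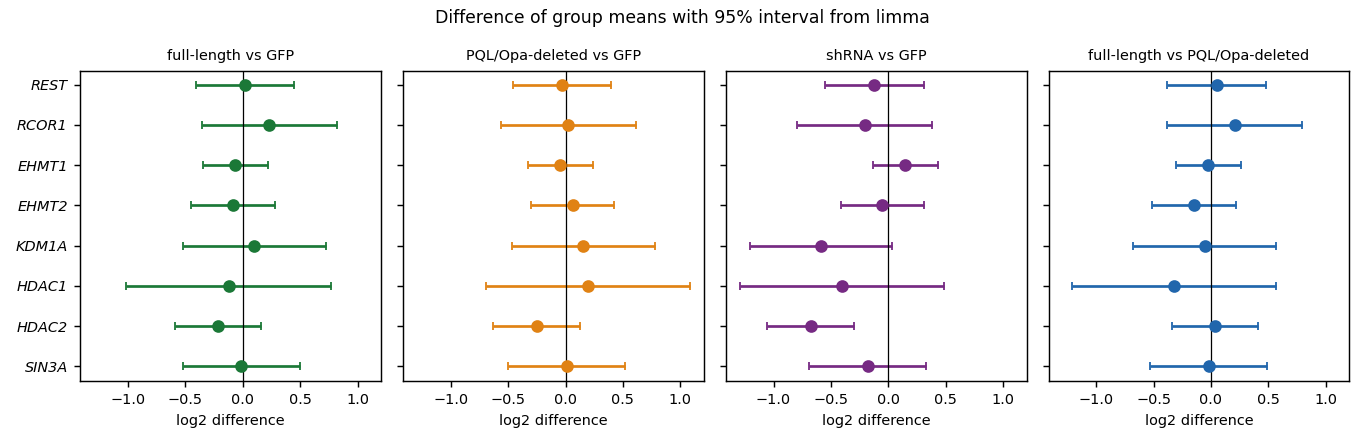
Each panel plots, for 1 comparison, the difference of group means of the 8 genes on the log2 scale with limma's 95% interval. HDAC2 with the shRNA is the 1 interval that does not include 0, from -1.05 to -0.30.

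The 2 MED12 constructs were also set against each other. The largest differences of full-length from PQL/Opa-deleted MED12 were those of HDAC1 at -0.32 (interval -1.21 to 0.57) and RCOR1 at 0.21 (interval -0.38 to 0.80). Leaving out PQL/Opa-deleted replicate 1 gave HDAC1 -0.63 and RCOR1 0.038, and leaving out full-length replicate 1 gave HDAC1 -0.077 and RCOR1 0.31. EHMT2 had -0.15 (interval -0.51 to 0.21). REST had 0.049, HDAC2 0.036, SIN3A -0.020, EHMT1 -0.023 and KDM1A -0.055. All 8 intervals include 0, which does not show that the constructs act alike, and 0 of the 8 genes had groups that did not overlap.

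The values of most of these genes ran with the spread of the array. Over the 12 arrays the log2 value of SIN3A had a Pearson correlation of 0.93 with the array's SD over all rows, RCOR1 0.92, HDAC1 0.89, KDM1A 0.86, REST 0.74 and HDAC2 0.55. EHMT2 had -0.75 and EHMT1 -0.10. These are descriptions over arrays that share the same normalization, and the part of the spread in any group difference was not tested. The SD is itself computed from all rows, and the correlation with it was not computed for every row. The values therefore do not set these genes apart from other rows. RCOR1, SIN3A and EHMT2 were separated between the 3 narrowest arrays and the 9 others. In the 3 narrowest RCOR1 lay between 3.45 and 3.71, below all 9 others (3.72 to 4.54). SIN3A lay between 3.36 and 3.60, below all 9 others (3.67 to 4.11). EHMT2 lay between 3.82 and 3.96, above all 9 others (3.46 to 3.70). The ranges of REST, EHMT1, KDM1A, HDAC1 and HDAC2 overlapped. The share of all rows separated in this way was not counted, so the separation is not shown to be particular to these genes. Among the genes themselves 13 of the 28 pairs had a correlation above 0.5 over the 12 arrays, and 9 over the 9 arrays without the narrowest 3. RCOR1 and SIN3A were the closest pair at 0.91 (0.76 over 9 arrays). The share of pairs above 0.5 among all rows was not counted. Whether these genes vary together more than other rows do is therefore not known.

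**Figure D3:**
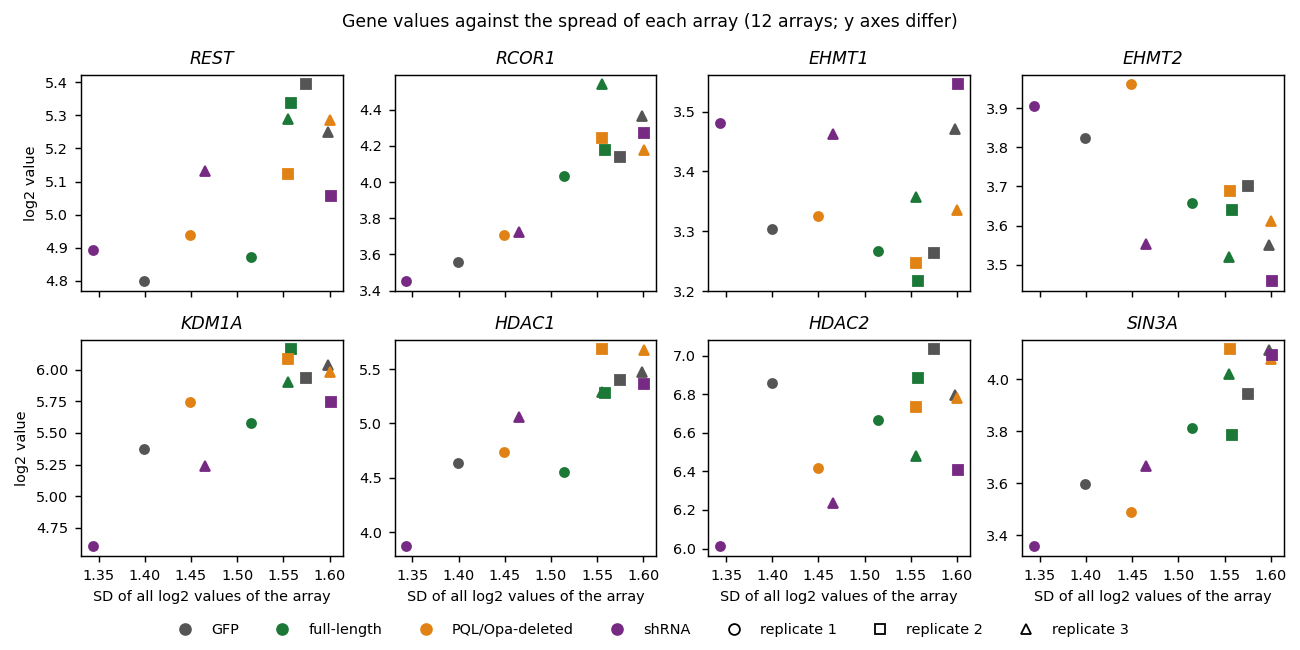
Each panel plots the log2 value of 1 gene against the SD of all 22011 log2 values of the same array, for the 12 arrays, coloured by group and marked by replicate number. RCOR1, SIN3A, KDM1A and HDAC1 are lower in arrays of narrow spread, EHMT2 is higher, and the 3 shRNA points are the lowest of HDAC2.

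The rows whose profile over the 12 arrays was most like that of REST, by Pearson correlation, were MARCHF7, a ubiquitin ligase gene (0.93), XRCC2, a homologous recombination gene (0.92), and TTLL7, a tubulin polyglutamylase gene (0.91). Over the 9 arrays of wider spread the values were 0.89, 0.86 and 0.92. For EHMT2 the nearest were FRAS1 (0.96), PLCZ1 (0.96) and KALRN (0.96), with 0.88, 0.86 and 0.80 over the 9 arrays. All 6 rows followed the array's spread in the direction of the gene they resemble, with correlations of 0.78 to 0.82 for the first 3 and -0.78 to -0.71 for the others.

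The wider machinery was read from lists of known partners. Over all rows an unadjusted p under 0.05 (limma) was held by 2.8%, 3.46% and 5.04% with full-length, deleted and shRNA. Groups did not overlap GFP in 7.72%, 7.92% and 8.56%. Genes named below were picked for the smallest p of their list, so they are no result about the list. Of 11 measured further genes of the CoREST and LSD1 complex and its cofactors, 0 passed in any comparison with GFP (limma, 0 unadjusted in each), with medians of -0.0037, -0.022 and 0.082 for full-length, deleted and shRNA. RCOR3, a paralogue of RCOR1, and ZMYM2, a zinc finger component, had -0.31 each with the shRNA. ZMYM2 had -0.32 and the repressor ZEB1 -0.25 with the deleted form. PHF21A, the histone reader of the complex, had 0.37 and HMG20B 0.13 with full-length MED12. Of the 15 measured SIN3 complex genes and related deacetylases 0 passed (limma; 0, 0 and 1 unadjusted). The 1 was ING2, a reader of methylated H3K4 in the SIN3 complex, at 3.56, 3.50 and 3.53 with the shRNA against 4.03, 4.54 and 3.95 with GFP. All 3 shRNA values lie under the GFP values, for a difference of -0.64 ± 0.20 (SE; limma, adjusted p = 0.857). HDAC3, another class I deacetylase, had 0.33 with the deleted form, and SUDS3, a SIN3 subunit, had -0.37. With full-length MED12 SUDS3 had -0.22 and SIN3B, the paralogue of SIN3A, -0.20, and with the shRNA ARID4B had -0.45.

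Of 20 measured H3K9 methylation and heterochromatin genes 0 passed in any comparison with GFP (limma; 1, 1 and 1 unadjusted, against 2.8%, 3.46% and 5.04% of all rows). CBX1, which encodes heterochromatin protein HP1 beta, had 5.63, 5.16 and 5.89 with full-length MED12 against 4.64, 4.73 and 5.07 with GFP. All 3 full-length arrays lay above GFP, a difference of 0.74 ± 0.22 (SE; limma, adjusted p = 1.00). In that comparison 7.72% of all rows did not overlap. The CBX1 difference was 0.026 with the deleted form and 0.31 with the shRNA. TRIM28, a corepressor of zinc finger proteins, had 0.44 with the deleted form, 0.40 with full-length MED12 and 0.25 with the shRNA, against the same GFP arrays. CBX5, which encodes HP1 alpha, had 0.40 with the deleted form. ZNF644, a zinc finger partner of G9a, had 4.29, 5.28 and 4.75 with the shRNA and 5.25, 5.56 and 5.60 with GFP, groups that overlap through shRNA replicate 2, and a difference of -0.70 ± 0.24 (SE; limma, adjusted p = 0.910). CDYL, a chromodomain corepressor, had -0.34. Of 6 measured H3K4 enzymes and their core subunits 0 passed (limma, 0 unadjusted in each), and the named ones, DPY30, RBBP5 and KMT2D, ranged from -0.17 to 0.24.

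Genes that set the amount or activity of REST protein held the gene nearest to the threshold. SKP1, a subunit of the SCF ubiquitin ligases that through BTRC mark REST for destruction, had 5.30, 5.18 and 5.20 with the shRNA and 6.50, 6.25 and 6.18 with GFP. The 3 shRNA arrays lay far under every other array, the lowest of which was 6.15. The difference of -1.08 ± 0.18 (SE) missed the threshold (limma, adjusted p = 0.100). With limma the adjusted p was 0.0303 when full-length replicate 3 was left out, 0.0292 over rows of 1 symbol only and 0.00105 with array weights, the fit with the most rows called. Over all 21 refits it ranged from 0.00105 to 0.594 (limma), so whether SKP1 passes depends on the setting, while its sign stayed the same. SKP1 serves many other ubiquitin ligases. Of the 15 measured genes of this list 0 passed with limma (0, 1 and 1 unadjusted for full-length, deleted and shRNA, against 2.8%, 3.46% and 5.04% of all rows). SMARCA4, the BRG1 remodelling ATPase, had 0.45 with the deleted form, 0.26 with full-length MED12 and 0.31 with the shRNA, all against the same GFP arrays. USP15, a deubiquitinase, had 0.33 with the deleted form. PRICKLE1 had 0.37 with the shRNA.

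In the Mediator list of 13 genes MED12 was the 1 that passed with each construct, where it was higher, and 0 passed with the shRNA (limma; 1 unadjusted in each comparison, MED12). MED1 had 0.32 with full-length MED12, CDK8, the kinase of the module, -0.26 with the deleted form and CCNC, its cyclin, -0.44 with the shRNA. REST target genes of neurons, 39 of them measured, had medians of -0.045, -0.051 and 0.043, and 0 passed (limma; 0, 1 and 1 unadjusted, against 2.8%, 3.46% and 5.04% of all rows). SYP, a synaptic vesicle gene, had 4.83, 3.94 and 4.38 with the deleted form against 2.76, 2.44 and 3.81 with GFP. The groups did not overlap, as in 7.92% of all rows, and the difference was 1.38 ± 0.41 (SE; limma, adjusted p = 1.00). It was 0.77 with full-length MED12 and 0.34 with the shRNA, against the same GFP arrays. In those arrays SYP stood at the 20.9th, 18.8th and 64.6th percentile, so the GFP values differ widely. SLC18A3, the vesicular acetylcholine transporter, had 0.55 with the shRNA and GAP43 had 0.43, and CHGB had -0.35 with the deleted form.

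**Figure D4:**
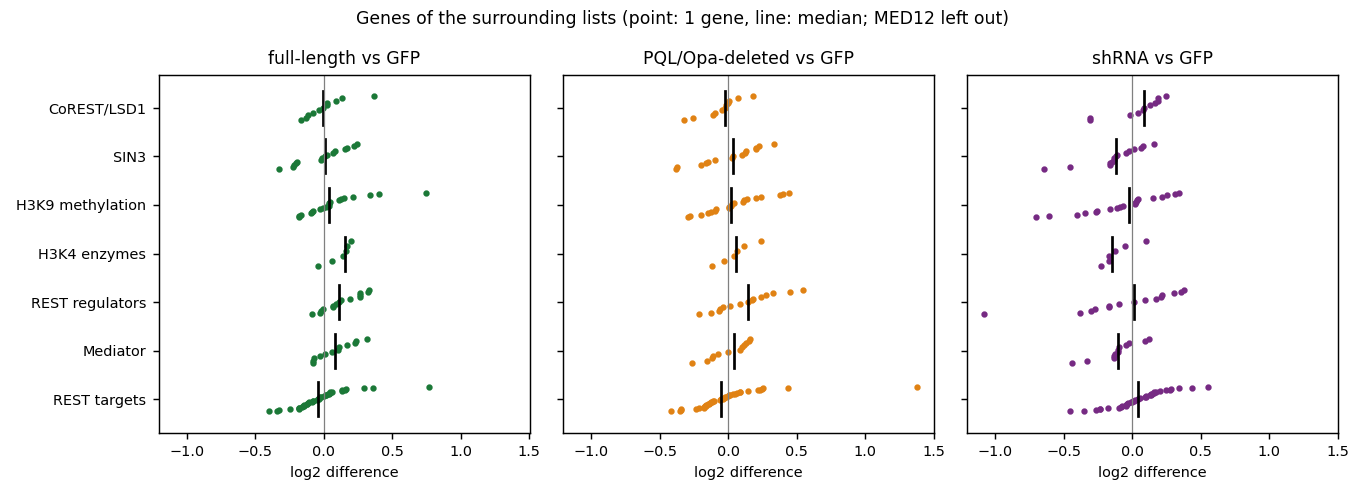
Each panel plots, for 1 comparison with GFP, the log2 difference of every measured gene of the 7 surrounding lists, 1 point a gene with the list's median as a line and MED12 left out. SKP1 at -1.08 is the lowest point of the shRNA panel, SYP at 1.38 the highest of the deleted-form panel and the medians lie between -0.15 and 0.15.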

How the data were processed

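RNA of sorted cells was amplified with NuGEN kits, labelled with biotin and hybridised to 1-colour arrays, per the labels' protocols. The deposited values are log2 values, 1 per row and array, and Partek, RMA and build hg18 are named in the submitters' processing notes. No source used here gives a Partek version, the probe set level or a filter. A row was named only where the platform annotation gave it 1 gene symbol (14432 of 22011 rows; 2408 had several and 5171 none). Values were used as deposited, with 0 columns left out.

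Differences come from limma 3.58.1 (R 4.3.3; lmFit, then eBayes with no trend) on the 12 arrays with 1 mean per group, 8 residual and 3.52 prior degrees of freedom. Tests were two-sided, and p-values were adjusted by Benjamini-Hochberg across the 22011 rows, with calls at 0.05. Every adjusted p is limma's. An exact permutation test of 3 against 3 cannot go below 0.1, so none was used. Precision is limited by having 3 arrays a group, with a median standard error of 0.21 for the 8 genes and 0.23 for all rows. The labels call the samples biological replicates. The labels do not say what a replicate number marks. Deviations of same-numbered arrays from their group means had correlations over 0.1 in every pair of the full-length (0.101 to 0.229) and deleted (0.149 to 0.472) groups with GFP. Between the shRNA and GFP they were 0.464, 0.269 and 0.022 for replicates 1 to 3, and between the constructs 0.240, 0.076 and 0.218. The main fit does not pair arrays by number. The block fit does so for all 4 groups at once.

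Named were the 8 genes, MED12, in each list the 2 genes with the smallest p in each comparison with GFP, and the 3 rows most correlated with REST and with EHMT2. In lists a gene was read from its row with the highest mean. SYN1 and GRIA2 were added for their sequence. The genes, lists, tests and alternatives were chosen with earlier results of these data known. The fitting code was tested on simulated data. Promoter sequences are RefSeq's on GRCh38.p14, matched by symbol for 8 of 8 genes. That build differs from the one of the array processing, so no array position is given.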

Additional observations from a re-analysis of the deposited data

How the results depend on the processing

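Each comparison was refitted with the replicate number as a block, quantile normalization, centring and scaling, the 6 arrays compared alone, a trended robust eBayes, rows above the median level only (which leaves out EHMT1), rows with 1 symbol only, array weights, without each array in turn and, chosen after seeing the data, without the 3 arrays of narrowest spread. Of 668 refitted differences of the 8 genes 606 kept their sign and their side of the threshold, 2 passed (HDAC2 and KDM1A with the shRNA, array weights) and 60 turned their sign, none of them past the threshold. The count of these genes past it was 0 in every refit except with array weights, where it was 2 for the shRNA and 3 for the F test (HDAC2, KDM1A and RCOR1). The replicate block changed no call of these genes and gave HDAC2 with the shRNA an adjusted p of 0.211 (limma); over all rows it raised the count for the deleted form from 1 to 2. The count of all rows with the shRNA was 15, and 23 after quantile normalization, 4 with the 6 arrays alone, 5 without GFP replicate 2, 8 without GFP replicate 3 and 5702 with array weights. Array weights gave 6 for full-length MED12 against 3, 20 for the deleted form against 1, 4 between constructs against 1 and 6360 for the F test against 19. Between constructs the 1 row, MED12, became 0 with a trend, without the narrow arrays and in 9 of the 12 fits without 1 array, 2 after quantile normalization and with rows above the median level, and 3 without shRNA replicate 1; its adjusted p ranged from 0.00206 to 0.365 (limma). The F test gave 5 to 10 rows without shRNA replicate 1 or 3, full-length replicate 2 or GFP replicate 2, and 8 without the 3 narrow arrays.

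None of the differences whose sign turned had passed the test; the largest were HDAC1 with the shRNA (-0.41), RCOR1 with full-length MED12 (0.23) and HDAC1 with the deleted form (0.20), and the cause was not tested. Against GFP, quantile normalization gave REST -0.063 with full-length MED12 and 0.0015 with the shRNA, and SIN3A -0.016 with the deleted form; scaling gave REST -0.047 with full-length MED12 and SIN3A -0.019 with the deleted form. Array weights gave, with full-length MED12, REST -0.15 and KDM1A -0.036. Without the 3 narrow arrays, full-length MED12 gave REST -0.16, RCOR1 -0.0013 and KDM1A -0.10, and the deleted form gave RCOR1 -0.040. Between the constructs HDAC2 had -0.0036 after quantile normalization, -0.066 with array weights and -0.077 without the narrow arrays, SIN3A 0.012 after quantile normalization and 0.014 after scaling, EHMT1 0.0011 with array weights and REST -0.040 without the narrow arrays. Over the 12 fits without 1 array, full-length MED12 against GFP ranged from -0.16 to 0.17 for REST, -0.0013 to 0.40 for RCOR1, -0.10 to 0.25 for KDM1A, -0.39 to 0.12 for HDAC1 and -0.16 to 0.10 for SIN3A. The deleted form ranged from -0.21 to 0.092 for REST, -0.21 to 0.19 for RCOR1, -0.085 to 0.018 for EHMT1, -0.042 to 0.13 for EHMT2, -0.048 to 0.28 for KDM1A, -0.071 to 0.51 for HDAC1 and -0.13 to 0.21 for SIN3A. The shRNA ranged from -0.29 to 0.0028 for REST, -0.19 to 0.037 for EHMT2 and -0.70 to 0.041 for HDAC1. Between the constructs the ranges were -0.040 to 0.20 for REST, -0.061 to 0.0092 for EHMT1, -0.19 to 0.097 for KDM1A, -0.077 to 0.13 for HDAC2 and -0.22 to 0.090 for SIN3A.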
